A study of Mus musculus with 4 samples.

Results

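The genes described here are Eif3j1, its near-identical copy Eif3j2, AA467197, Slc30a4, Cst3, Cdk5rap1 and Dll4, 7 of the 31053 mouse genes counted in tumours grown in wild-type (WT) and Il1a-/- hosts. They were chosen on measured values: each differed between the host genotypes in at least 1 cell type of these same samples, and 6 of them lie on chromosome 2, which holds Il1a and 2357 of the counted genes. The exception, Eif3j2, lies on chromosome 18 (GRCm38, 43475418 to 43477796, minus strand). Because the genotype difference chose them, it is given as a description with no test, and tests are given only between cell classes and for genes outside the 7.

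The samples were 4 transplanted mammary tumours, 1 per host, 2 from WT and 2 from IL1α-/- (Il1a-/-) mice. Hosts were 6 to 8 weeks old and all samples carry the strain label FVB/NJ; the labels do not say on which strain the null allele was made or how often it was backcrossed. In every host the tumour came from HER2+ H605 mammary tumour cells, a single line cultured with insulin and serum and injected into the mammary pad, and it was collected on day 14, so host cells differ in Il1a genotype while the tumour cells come from the same line in both groups. Cells were profiled by droplet sequencing of the 3′ ends of transcripts, which counts unique molecular identifiers (UMIs), each standing for 1 captured transcript. The labels do not state that the 2 tumours of a group are independent experiments beyond separate hosts and collection days.

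Several of these genes have known roles. Eif3j1 and Eif3j2 encode eIF3j, a loosely bound subunit of translation initiation factor 3, which helps place the small ribosomal subunit on messenger RNA. AA467197 encodes the mouse counterpart of NMES1, a small mitochondrial protein related to a subunit of respiratory complex IV and induced in activated macrophages. Slc30a4 encodes the zinc exporter ZnT4, known in the mammary gland for moving zinc into milk. Cst3 encodes cystatin C, a secreted inhibitor of cysteine cathepsins that is abundant in dendritic cells. Cdk5rap1 encodes an enzyme that modifies mitochondrial transfer RNAs, and Dll4 encodes a Notch ligand best known from endothelial cells. As general background, a mouse made by gene targeting can keep DNA of the embryonic stem cell strain on both sides of the targeted gene, and alleles there differ from the host strain in all cells of the body; whether that applies to these hosts was not tested here.

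Libraries held 6705368 to 29001333 UMIs and gave 3130 to 3878 called cells each, with medians of 1348 and 2883.5 UMIs per cell in the Il1a-/- samples and 3093 and 4160 in the WT samples, so the knockout libraries were the shallower ones. Libraries shared at most 5 called barcodes. Il1a itself had 65 and 109 UMIs in called cells of WT replicates 1 and 2 and 1 and 0 in those of Il1a-/- replicates 1 and 2, in the order of the labels. Cells were gated by marker genes into a T/NK-like class (9072 cells), a mononuclear phagocyte-like class (1567), a fibroblast-like class (1111), a plasmacytoid dendritic-like class (441) and a tumour epithelial-like class (679, of which 28 and 3 came from the knockout hosts). The first 4 host classes had at least 20 cells in every sample and were compared between genotypes. Class names rest on these markers alone, and in sums over cells, fewer cells of a type within a class and less RNA per cell cannot be told apart.

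Levels are given as UMIs in 1000000 UMIs of the class (CPM), and differences as log2 fold changes of Il1a-/- over WT with standard errors from edgeR. Of all genes tested, 57.4% in the T/NK-like class, 48.0% in the phagocyte-like class, 46.0% in the plasmacytoid dendritic-like class and 36.9% in the fibroblast-like class had no overlap between the 2 WT and the 2 knockout samples. Of the 7 genes, 4 of the 6 that passed the low-count filter in the T/NK-like class did not overlap, 6 of 6 in the phagocyte-like class, 5 of 5 in the plasmacytoid dendritic-like class and 6 of 6 in the fibroblast-like class; nothing is read from these counts, since the choice of genes used the contrast. The plot of levels shows several kinds of pattern. Eif3j1, Cdk5rap1 and AA467197 were higher in the knockout samples of every host class in which they were fitted, AA467197 in fibroblast-like cells mainly through 1 library. Eif3j2 was lower in every fitted class, and Cst3 in all but the T/NK-like class, where its groups overlapped. Slc30a4 was higher in some classes and lower in another. Of the 4 fitted host classes, Dll4 had more than 1 UMI in a sample only in plasmacytoid dendritic-like cells.

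**Figure D1:**
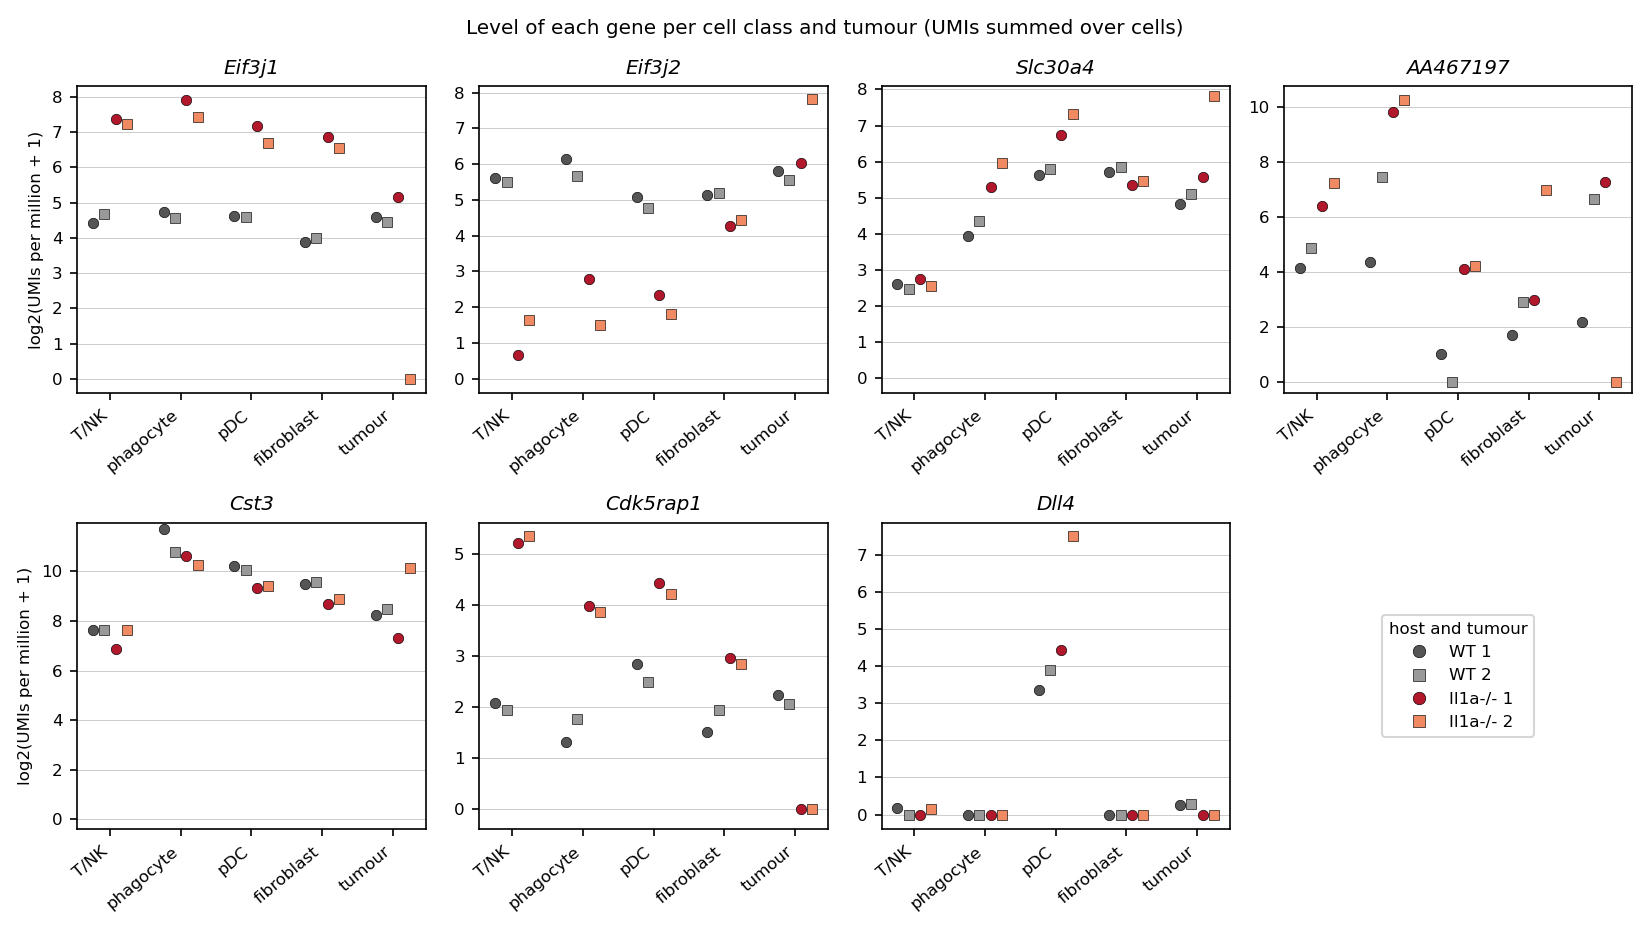
Level of each gene in each tumour, as log2(CPM + 1) of UMIs summed over the cells of a class; circles and squares mark replicates 1 and 2, grey is WT and red is Il1a-/-. Eif3j1 stood apart by genotype in the T/NK, phagocyte, plasmacytoid dendritic (pDC) and fibroblast classes, and the tumour values of Il1a-/- replicate 2 rest on 3 cells.

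Eif3j1 (ENSMUSG00000027236) lies 7.24 Mb from Il1a at chr2:122028546-122056598 on the plus strand. In the T/NK-like class its level was 20.7 and 24.8 CPM in WT tumours and 166 and 149 CPM in knockout tumours, a log2 fold change of 2.81 ± 0.18 (SE, n = 2 per group). In phagocyte-like cells the levels were 25.7 and 22.9 against 241 and 171 CPM, in plasmacytoid dendritic-like cells 23.5 and 23.2 against 143 and 102 CPM, and in fibroblast-like cells 13.8 and 14.96 against 114 and 92.8 CPM. The log2 fold changes in those classes were 3.08 ± 0.25, 2.37 ± 0.31 and 2.84 ± 0.25. Every knockout value was far above every WT value of its class, and the groups overlapped in none of the 4. Free RNA, measured in barcodes of at most 100 UMIs, held Eif3j1 at 21.8 and 15.3 CPM in the WT and 106 and 74.3 CPM in the knockout libraries. Both WT fibroblast-like levels and the T/NK-like level of WT replicate 1 lay below that of their own library. All knockout levels lay above it. The part of free RNA in these levels was not tested.

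The copy went the other way. Eif3j2 (ENSMUSG00000043424), which has no intron in its annotated transcript, stood at 47.8 and 44.1 CPM in the T/NK-like cells of the WT samples and at 0.575 and 2.12 CPM in those of the knockout samples, which is 2 and 18 UMIs. Phagocyte-like cells had 70.1 and 49.7 against 5.87 and 1.84 CPM, and plasmacytoid dendritic-like cells 32.6 and 26.3 against 4.09 and 2.50 CPM. The log2 fold changes were -4.77 ± 0.33, -4.42 ± 0.47 and -3.16 ± 0.68; without Il1a-/- replicate 2 the first 2 were -6.27 and -3.37. Fibroblast-like cells kept more of it: 34.0 and 35.6 CPM in the WT samples and 18.1 and 20.5 CPM in the knockout samples, a log2 fold change of -0.83 ± 0.26. Free RNA held Eif3j2 at 40.9 and 27.3 CPM in the WT and 1.34 and 4.08 CPM in the knockout libraries. The levels of both WT samples in plasmacytoid dendritic-like cells and of WT replicate 1 in fibroblast-like cells lay below that of their own library. So did both knockout T/NK-like levels and, in Il1a-/- replicate 2, the phagocyte-like and plasmacytoid dendritic-like ones. The part of free RNA in these levels and in the split between the copies was not tested.

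Set together, the split between the copies separated the genotypes in each of these classes. Eif3j1 made up 30.2% and 36.0% of the UMIs of the pair in T/NK-like cells of the WT samples and 99.7% and 98.6% in those of the knockout samples. The share went from 26.8% and 31.5% to 97.6% and 98.9% in phagocyte-like cells and from 41.8% and 46.9% to 97.2% and 97.6% in plasmacytoid dendritic-like cells. In fibroblast-like cells it went from 28.8% and 29.6% to 86.3% and 81.9%. The exact Clopper-Pearson 95% intervals of those last 2 values, 78.7 to 92.0% and 76.2 to 86.7%, lay below the intervals of the knockout T/NK-like cells, 98.8 to 99.96% and 97.8 to 99.2%; they cover counting error only. The summed level of the pair was also higher in the knockout samples, by 2.31 times in T/NK-like, 2.49 times in phagocyte-like, 2.39 times in plasmacytoid dendritic-like and 2.50 times in fibroblast-like cells, so the loss of Eif3j2 UMIs did not balance the gain of Eif3j1 UMIs.

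**Figure D2:**
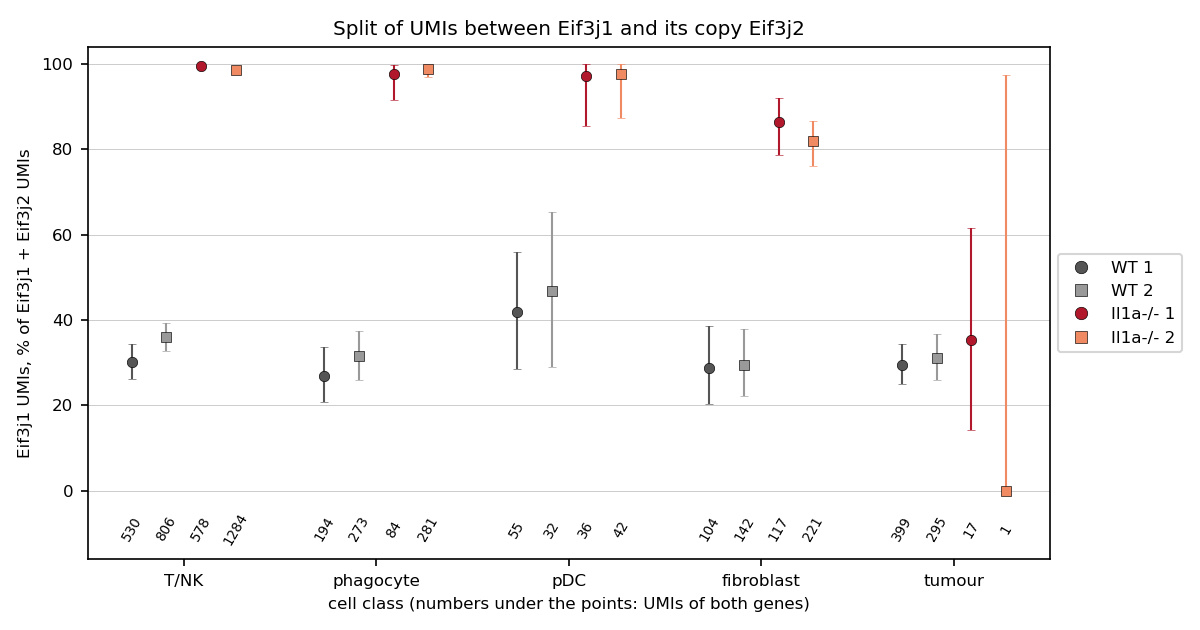
Share of Eif3j1 in the UMIs of Eif3j1 and Eif3j2 together, by class and tumour, with exact 95% intervals; numbers under the points are the UMIs of the pair. WT host cells lie between 26.8 and 46.9%, knockout host cells between 81.9 and 99.7%, and tumour cells of the WT samples near 30%.

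Cells of the transplanted line served as a comparison inside the same libraries. Tumour epithelial-like cells had an Eif3j1 share of 29.6% (118 of 399 UMIs) and 31.2% (92 of 295) in the WT samples. In Il1a-/- replicate 1 the share was 35.3% (6 of 17 UMIs, interval 14.2 to 61.7%). The fibroblast-like cells of that tumour had 86.3% (interval 78.7 to 92.0%), and its T/NK-like, phagocyte-like and plasmacytoid dendritic-like cells 97.2% or more. Il1a-/- replicate 2 had 1 UMI of the pair in tumour cells and gives no value. At this depth, with 28 tumour cells, the split in tumour cells of the knockout host was not distinguishable from that in WT hosts.

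The shift was also seen within the classes. Unsupervised clustering divided the T/NK-like cells into 7 clusters with at least 20 cells in every sample. Across those clusters and samples the Eif3j1 share ran from 16.7% (1 of 6 UMIs) to 42.9% in WT and was 97.2% or more in knockout tumours, and Eif3j1 was higher and Eif3j2 lower in both knockout samples in 7 of 7. The same held in the 2 phagocyte clusters, with 13.2 to 34.4% in WT and 96.6% or more in the knockout. In the 1 fibroblast cluster large enough it was 26.6 to 29.2% against 79.5 to 86.2%. The clusters were made from expression values that included these genes, so this is a description of the groups and not a separate test.

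The residual Eif3j2 of the knockout fibroblast-like cells was looked at cell by cell. Of 543 such cells, 49 had an Eif3j2 UMI; 48 of the 49 had UMIs of the fibroblast genes Pdgfra or Pi16, and 26 also had an Eif3j1 UMI. None of the 49 had a UMI of the epithelial genes Epcam, Krt8 or Krt18, which had 0 UMIs in the whole knockout fibroblast-like class. Pdgfra and these epithelial genes were themselves gate markers, so the gate favoured this outcome and it is not a separate check. Free RNA, measured in barcodes of at most 100 UMIs, held Eif3j2 at 1.34 and 4.08 CPM in the 2 knockout libraries, below the 18.1 and 20.5 CPM of these cells. The source of the residual Eif3j2 was not tested.

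How far the copies can be told apart depends on where reads fall. In GENCODE vM21, the lowest-numbered transcript of Eif3j2 (2379 bases) aligned to bases 78 to 2446 of that of Eif3j1 (5413 bases) with 2365 identical bases, 4 mismatches and 10 gapped bases. All 783 coding bases were identical. The 4 substitutions, counted from 1 at the 5′ end of the Eif3j1 transcript with the Eif3j1 base first, were G104A before the coding sequence and T1607G, A1618T and C2301T after it. Of the 91-base windows of that transcript, 36.7% occur unchanged in the copy, but 0 of the last 500 windows do, and a read from the shared part can be assigned to either copy by these few bases alone. The 3′ end of the Eif3j1 transcript has no counterpart in the copy. What share of the UMIs of either gene came from the shared part was not tested, so both genes' values carry this uncertainty.

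The other chromosome 2 gene examined for a processed copy was Pcna, the sliding clamp of DNA replication, 2.94 Mb from Il1a. Its pseudogene Pcna-ps2 on chromosome 19 aligned to it with 775 identical bases and 6 mismatches. Pcna-ps2 had 3 and 8 UMIs in T/NK-like cells of the WT samples and 77 and 286 in those of the knockout samples. In phagocyte-like cells it had 0 and 1 against 5 and 36 UMIs. Pcna itself differed less, with 121 and 124 against 146 and 177 CPM in T/NK-like cells, and overlapped between genotypes in phagocyte-like cells.

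Cdk5rap1 (ENSMUSG00000027487) lies on the other side of Il1a, 25.025 Mb away at chr2:154335380-154373010, minus strand. It was low in WT T/NK-like cells, at 3.23 and 2.82 CPM, and stood at 36.2 and 39.6 CPM in the knockout samples, a log2 fold change of 3.69 ± 0.21. Phagocyte-like cells had 1.48 and 2.39 against 14.7 and 13.5 CPM (2.76 ± 0.50), from 3 and 9 against 5 and 22 UMIs. Fibroblast-like cells had 1.84 and 2.85 against 6.80 and 6.15 CPM (1.41 ± 0.55). In plasmacytoid dendritic-like cells, where it did not pass the filter, the levels were 6.12 and 4.65 against 20.5 and 17.5 CPM. Knockout samples were above WT samples in all 4 classes, in 7 of 7 T/NK-like clusters and in 1 of the 2 phagocyte clusters. The estimate in fibroblast-like cells was the smallest of the 3. Free RNA held Cdk5rap1 at 0 and 2.98 CPM in the WT and 12.1 and 35.9 CPM in the knockout libraries. Both knockout fibroblast-like levels lay below that of their own library. So did the phagocyte-like and plasmacytoid dendritic-like levels of Il1a-/- replicate 2. The part of free RNA in these levels was not tested. Tumour cells had 3.73 and 3.15 CPM in the WT samples and 0 UMIs in both knockout samples, which for Il1a-/- replicate 1 allows up to 17.6 CPM (3 counts).

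AA467197 (ENSMUSG00000033213) and Slc30a4 (ENSMUSG00000005802) are near neighbours, 6.66 and 6.60 Mb from Il1a at chr2:122636986-122641191 on the plus and chr2:122681233-122702663 on the minus strand, yet they did not vary together. Of the 4 fitted host classes, AA467197 was highest in phagocyte-like cells in every sample, at 19.8 and 172 CPM in the WT samples and 898 and 1209.7 CPM in the knockout samples (log2 fold change 3.46 ± 0.76). Leaving out WT replicate 1 gave 2.63 and leaving out WT replicate 2 gave 5.80. Small classes that were not fitted held more AA467197 in some WT samples, with 110 CPM (18 UMIs) in conventional dendritic-like cells of WT replicate 1 and 219 CPM (20 UMIs) in neutrophil-like cells of WT replicate 2. T/NK-like cells had 16.8 and 28.0 against 82.0 and 149 CPM (2.40 ± 0.33), and both knockout samples were above both WT samples in 5 of 7 clusters. One of these clusters had 29 and 57 T/NK-like cells in WT tumours but 836 and 591 in knockout tumours, and it carried 193 of the 285 and 630 of the 1263 AA467197 UMIs of the knockout class. Free RNA of the knockout libraries held AA467197 at 292 and 319 CPM, above those T/NK-like levels, and the part of free RNA in them was not tested.

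In fibroblast-like cells the AA467197 difference was set by 1 library. The levels were 2.30 and 6.41 CPM in the WT samples, 6.80 CPM in Il1a-/- replicate 1 and 126 CPM in Il1a-/- replicate 2, so the estimate of 3.97 ± 1.26 fell to 0.60 without that last library. Of the 246 AA467197 UMIs of this class in that library, 50 came from the 1 fibroblast cluster large enough, which held 233 of its 256 cells. In that cluster the levels were 2.02 and 1.68 CPM in the WT and 6.92 and 28.5 CPM in the knockout samples. Plasmacytoid dendritic-like cells held 1 and 0 UMIs in WT tumours and 4 and 7 in knockout tumours. Every AA467197 level in these 2 classes lay below that in free RNA of its own library. Free RNA stood at 292 and 319 CPM in the knockout libraries. The part of free RNA in these levels was not tested. Tumour cells varied within a genotype, with 3.53 and 98.6 CPM in the WT samples and 152 CPM (26 UMIs) in Il1a-/- replicate 1.

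Slc30a4 had no single direction. In T/NK-like cells it was low in every sample, at 5.16 and 4.53 against 5.75 and 4.84 CPM, and the groups overlapped (0.14 ± 0.29). In phagocyte-like cells it was higher in the knockout samples, with 14.3 and 19.4 against 38.1 and 61.4 CPM (1.69 ± 0.31, and 1.09 without Il1a-/- replicate 2). With classes taken from clusters the phagocyte groups overlapped, at 13.4 and 18.1 against 17.3 (6 UMIs) and 64.8 CPM, and both knockout samples were above both WT samples in 1 of the 2 phagocyte clusters. Plasmacytoid dendritic-like cells showed 48.9 and 54.2 against 106 and 157 CPM (1.43 ± 0.27). Fibroblast-like cells had 51.4 and 56.3 against 39.7 and 43.1 CPM (-0.37 ± 0.23), so there both knockout samples were the lower ones. Tumour cells had 27.6 and 33.5 CPM in the WT samples and 46.8 CPM (8 UMIs) in Il1a-/- replicate 1.

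**Figure D3:**
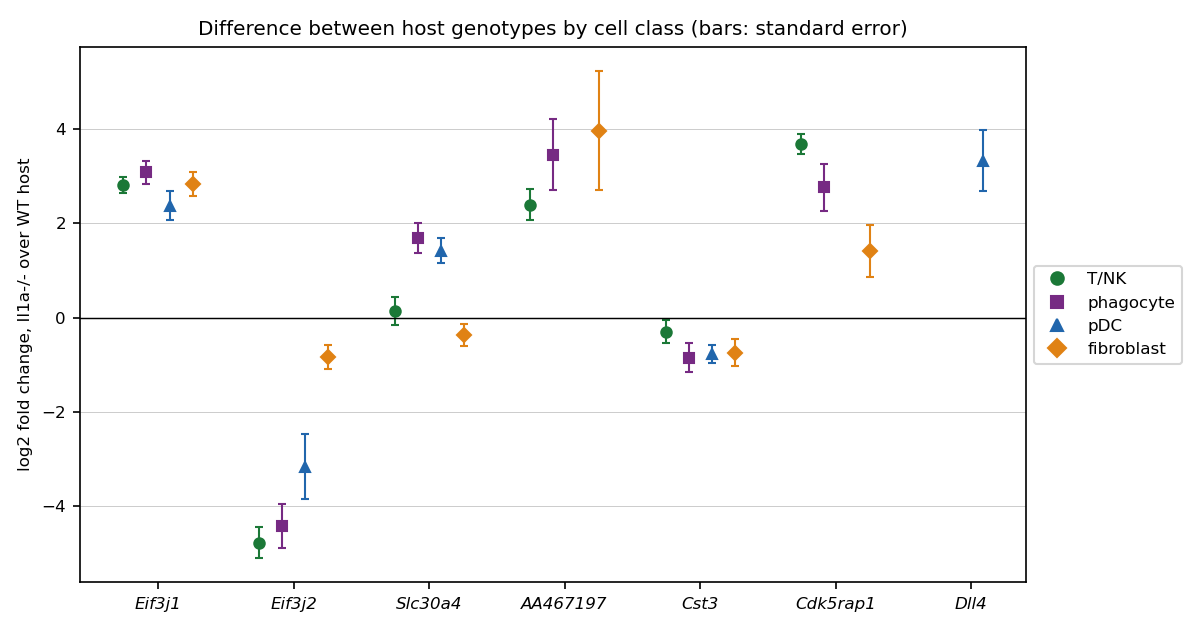
Log2 fold change of Il1a-/- over WT with its standard error, for each gene in each class where it passed the filter (2 tumours per group). Eif3j1 lies between 2.37 and 3.08 in the T/NK, phagocyte, pDC and fibroblast classes, whereas Slc30a4 runs from 1.69 in phagocytes to -0.37 in fibroblasts.

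The sequence just before the start of these 2 kinds of gene is shown because Eif3j1 was higher in the knockout samples of every fitted class and Slc30a4 only in some. Both stretches are from RefSeq, build GRCm38.p6, and end where the GENCODE gene begins; 6 of the 7 genes had an entry. Capitals mark the letters GGGCGG, the GC box bound by Sp factors, on either strand. The 216 bases at chr2:122028330-122028545 (plus strand) hold 5 matches and the 250 bases at chr2:122702664-122702913 (minus strand) hold 3, overlapping matches included.
Eif3j1 upstream: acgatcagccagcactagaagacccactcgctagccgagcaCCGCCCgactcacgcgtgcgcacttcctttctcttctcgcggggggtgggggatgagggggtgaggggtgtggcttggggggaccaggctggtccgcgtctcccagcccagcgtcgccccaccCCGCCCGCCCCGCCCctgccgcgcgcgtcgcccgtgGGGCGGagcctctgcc
Slc30a4 upstream: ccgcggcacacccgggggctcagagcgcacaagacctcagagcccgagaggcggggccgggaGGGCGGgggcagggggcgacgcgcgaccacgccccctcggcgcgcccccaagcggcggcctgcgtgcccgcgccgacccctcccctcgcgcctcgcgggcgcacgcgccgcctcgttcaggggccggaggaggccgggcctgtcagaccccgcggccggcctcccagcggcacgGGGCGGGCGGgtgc
The core of the metal response element, searched as TGCACNC or TGCGCNC on both strands, had 2 matches in each. Those in the Eif3j1 stretch overlapped, being the same run of letters read on either strand, while those in the Slc30a4 stretch lay apart. Of all 32851 mouse promoter stretches of the same lengths, 31.6 and 32.7% held the GC box and 19.1 and 21.4% the metal response core. A match is a run of letters and not a measured binding site.

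Cst3 (ENSMUSG00000027447), 19.6 Mb from Il1a at chr2:148871722-148875692 on the minus strand, was lower in the knockout samples of 3 classes. Phagocyte-like cells had 3389 and 1753 CPM in the WT samples and 1578.5 and 1226 CPM in the knockout samples (log2 fold change -0.85 ± 0.30), and without WT replicate 1 the estimate was -0.33. Plasmacytoid dendritic-like cells had 1194 and 1078 against 635 and 679 CPM (-0.76 ± 0.19). Fibroblast-like cells had 720 and 756 against 406 and 475 CPM (-0.74 ± 0.29). The groups did not overlap in these 3 classes. Free RNA held Cst3 at 754 and 905 CPM in the WT and 394 and 804 CPM in the knockout libraries, so the fibroblast-like level was above that of its own library only in Il1a-/- replicate 1. The plasmacytoid dendritic-like level of Il1a-/- replicate 2 also lay below that of its own library. The part of free RNA in these levels was not tested.

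In T/NK-like cells the Cst3 groups overlapped, at 198 and 196 against 115 and 197 CPM (-0.29 ± 0.25). Of the 1672 Cst3 UMIs in the T/NK-like cells of Il1a-/- replicate 2, 601 (35.9%) came from 8 cells that clustered with conventional dendritic cells. With classes taken from clusters the levels were 198 and 198 against 109 and 127 CPM (-0.71), and Cst3 was lower in both knockout samples in 7 of 7 T/NK-like clusters. All of these levels lay below the 394 to 905 CPM of Cst3 in free RNA, so a level of this size in T/NK-like cells cannot be told apart from background. Marker-gated conventional dendritic-like cells held the highest Cst3 level of the classes, 20649 and 23764 CPM in WT tumours and 23218 and 24316 CPM in knockout tumours. The whole conventional dendritic cluster had 13966 and 14733 against 11269 and 18028 CPM, and the genotypes overlapped in both.

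That dendritic cluster held 35 and 56 cells of the knockout samples and 79 and 120 of the WT samples, and its split of the eIF3j pair was like that of the T/NK-like cells. Marker-gated conventional dendritic-like cells were under 20 in each knockout sample and were not fitted. Eif3j1 stood at 18.7 and 21.7 against 190 and 156 CPM there, and Eif3j2 at 56.2 and 46.4 CPM against 0 and 2.94 CPM. AA467197 was at 60.3 and 49.3 against 285 and 311 CPM and Slc30a4 at 31.2 and 40.6 against 105 and 112 CPM. For these 4 genes the knockout samples did not overlap the WT samples. The share of all genes without overlap was not counted in this cluster, so nothing is read from that. Cdk5rap1 overlapped there, at 0 and 4.35 against 0 and 32.3 CPM. In the marker-gated conventional dendritic-like cells AA467197 overlapped, at 110 and 60.3 against 63.1 (2 UMIs) and 507 CPM.

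Dll4 (ENSMUSG00000027314), 9.96 Mb from Il1a at chr2:119325784-119335962 on the plus strand, passed the filter in 1 of the 4 fitted host classes. Plasmacytoid dendritic-like cells held 9 and 9 UMIs in WT tumours and 5 and 72 in knockout tumours, or 9.18 and 13.9 against 20.5 and 180 CPM. The log2 fold change of 3.33 ± 0.64 rested on Il1a-/- replicate 2: without that library it was 0.87. The exact Poisson intervals of Il1a-/- replicate 1 (6.65 to 47.8 CPM) and WT replicate 2 (6.37 to 26.5 CPM) overlapped, and these cover counting error only. Phagocyte-like and fibroblast-like cells had 0 Dll4 UMIs in all 4 samples and T/NK-like cells had 1 at most. Outside the fitted classes, the 15 endothelial-like cells of WT replicate 1 held 15 Dll4 UMIs, or 374 CPM, above the 9.18 CPM of the plasmacytoid dendritic-like cells of that tumour, and the 7 of Il1a-/- replicate 2 held 2. Cells in no class had 4 and 1 Dll4 UMIs in WT tumours and 2 and 9 in knockout tumours.

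Levels between cell classes did not enter the choice of genes and were tested, each class against the T/NK-like class within a sample, with edgeR's quasi-likelihood test and Benjamini-Hochberg adjustment over 11116 genes. Classes differ in most genes: 56.9% of all genes were called between phagocyte-like and T/NK-like cells, 44.4% for plasmacytoid dendritic-like and 68.8% for fibroblast-like cells. Of the 7 genes, 5, 4 and 5 were called, and nothing particular to them is read from these counts. Dll4 is 1 of the 4 in plasmacytoid dendritic-like cells; it passed the filter only through that class, so its call is not read. Slc30a4 was higher in all 3 classes than in T/NK-like cells, by 2.65 ± 0.36 on the log2 scale in phagocyte-like cells (edgeR adjusted p = 6.28e-06), 3.97 ± 0.37 in plasmacytoid dendritic-like cells (9.26e-08) and 3.52 ± 0.34 in fibroblast-like cells (4.14e-08), in 4 of 4 samples each. Cst3 was also higher in all 3, by 3.52 ± 0.20, 2.25 ± 0.19 and 1.90 ± 0.19, again in 4 of 4 samples.

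AA467197 had the opposite signs in different classes, at 2.61 ± 0.44 in phagocyte-like cells (edgeR adjusted p = 6.46e-05), -3.68 ± 0.81 in plasmacytoid dendritic-like cells (0.00122) and -1.44 ± 0.49 in fibroblast-like cells (0.0150, 3 of 4 samples). Cdk5rap1 was lower than in T/NK-like cells in phagocyte-like (-1.02 ± 0.37) and fibroblast-like cells (-1.59 ± 0.38), with edgeR adjusted p of 0.0244 and 0.00133. Eif3j1 differed least, by 0.34 ± 0.14 and -0.44 ± 0.14 in the same classes (0.0447 and 0.0117). Eif3j2 was called in none of the 3 classes, with edgeR adjusted p of 0.0944 to 0.714. The test takes both genotypes together, so this lack of a call does not mean like levels. Fibroblast-like cells had less Eif3j2 than T/NK-like cells in WT samples (34.0 and 35.6 against 47.8 and 44.1 CPM). In the knockout samples they had more (18.1 and 20.5 against 0.575 and 2.12 CPM). The call of Eif3j1 in phagocyte-like cells was lost without WT replicate 1, Il1a-/- replicate 1 or Il1a-/- replicate 2 (edgeR adjusted p of 0.138, 0.203 and 0.103) and that in fibroblast-like cells without WT replicate 2 (0.104). Cdk5rap1 lost its call in phagocyte-like cells without Il1a-/- replicate 1 or 2 (0.0946 and 0.179) and in fibroblast-like cells without Il1a-/- replicate 2 (0.0686), and AA467197 lost that in fibroblast-like cells without WT replicate 2 (0.0844). Eif3j2 was called higher in fibroblast-like cells when WT replicate 1 or WT replicate 2 was left out (0.0156 and 0.0227).

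Read as an order of levels, WT samples put Slc30a4 highest in fibroblast-like and plasmacytoid dendritic-like cells, whose values overlapped, then in phagocyte-like and last in T/NK-like cells. In the knockout samples plasmacytoid dendritic-like cells came first, and the phagocyte-like values of 38.1 and 61.4 CPM enclosed the fibroblast-like ones. For Cdk5rap1 the T/NK-like and plasmacytoid dendritic-like classes led: plasmacytoid dendritic-like cells were above T/NK-like cells in WT tumours and below them in knockout tumours. The plasmacytoid dendritic-like values rest on 6 and 3 UMIs in WT and 5 and 7 in knockout tumours. The test between these classes gave no call (edgeR adjusted p = 0.505). It takes both genotypes together, where the order was opposite, so it cannot address the order in either genotype, which was not tested.

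The surroundings of Il1a were then examined with these 7 genes and Il1a left out. Within 15 Mb of Il1a, 11 of 174 genes tested in T/NK-like cells differed between genotypes (3 higher, 8 lower; 6.32%), where 5.41% of all genes tested were called. In phagocyte-like cells 2 of 137 were called beside 0.604% of all genes, and in plasmacytoid dendritic-like cells 4 of 73 beside 1.66%. In fibroblast-like cells 0 of 155 were called beside 0% of all genes (0 of 9984) by edgeR; 9 of the 155 and 506 of all had an unadjusted p under 0.05, and DESeq2 called 16 of all genes. The count of 11 became 1 when either WT replicate 1 or WT replicate 2 was left out, and 22 and 19 when Il1a-/- replicate 1 or 2 was; the count of 2 in phagocyte-like cells ran from 1 to 3, with 1 when either WT replicate or Il1a-/- replicate 2 was left out. On chromosome 2 beyond 30 Mb, 26 of 528 genes tested in T/NK-like cells (4.92%) were called. The median log2 fold change within 15 Mb was -0.01, 0.02, 0.02 and 0.07 in the 4 classes, beside -0.01, -0.02, -0.01 and -0.01 over all genes.

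**Figure D4:**
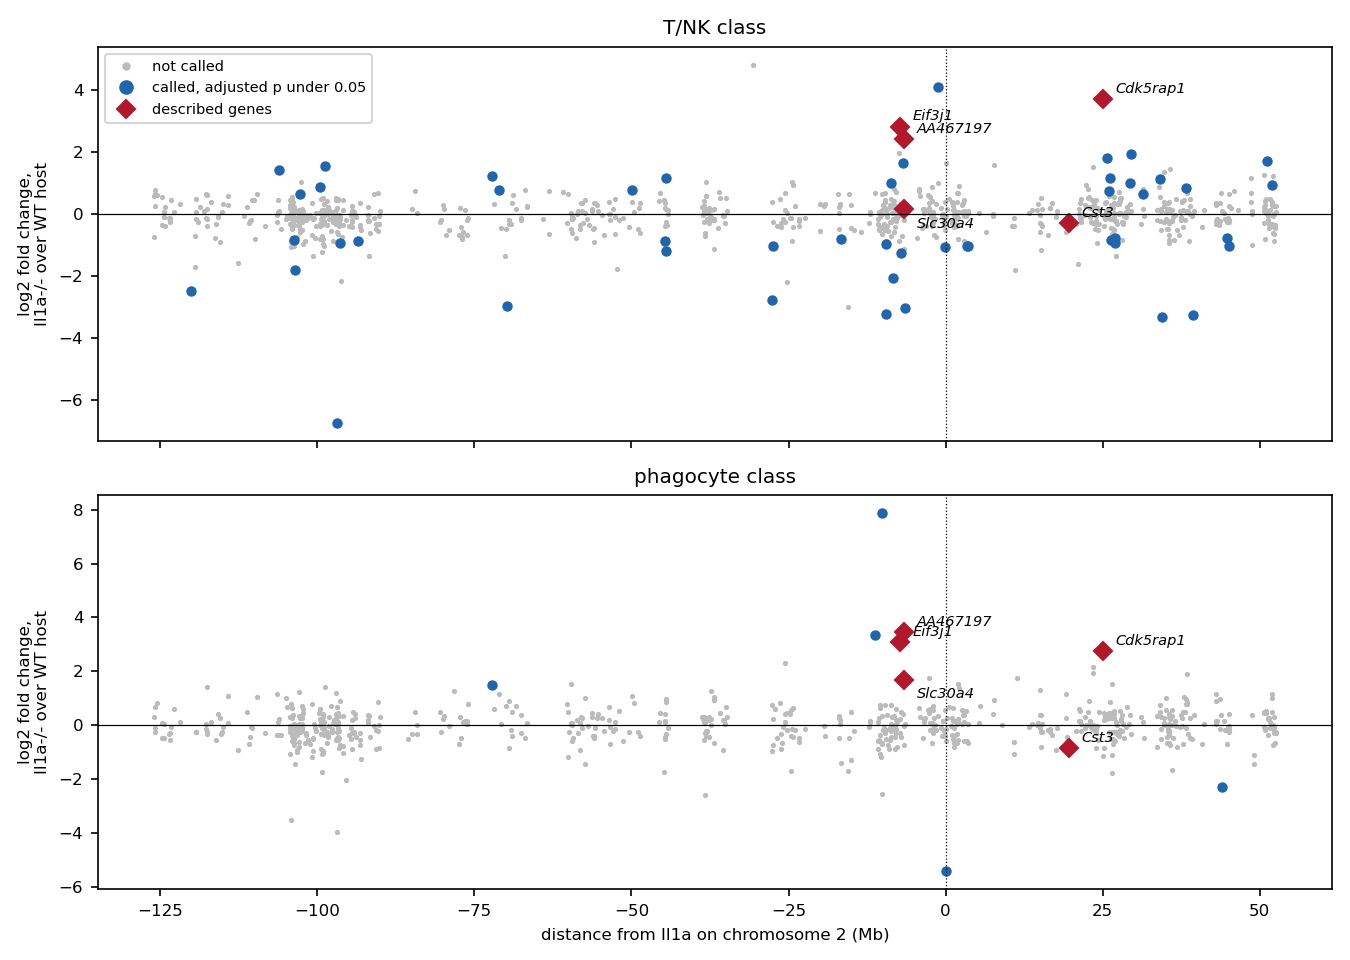
Log2 fold change of Il1a-/- over WT for genes of chromosome 2 against their distance from Il1a in Mb, in T/NK-like and phagocyte-like cells; blue marks genes with an adjusted p under 0.05 and red diamonds the described genes. Called genes lie along the whole chromosome in T/NK-like cells, Cdk5rap1 stands at 3.69 there, and the blue point at distance 0 in phagocytes is Il1a.

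The neighbours with the smallest p in T/NK-like cells moved in both directions. Ltk, a receptor tyrosine kinase gene 9.54 Mb away, fell from 10.3 and 9.10 to 1.15 and 0.969 scaled CPM (log2 fold change -3.22 ± 0.35, edgeR adjusted p = 0.00669). Slc28a2, a nucleoside transporter gene 6.84 Mb away and between Eif3j1 and AA467197, rose by 1.64 ± 0.20 (edgeR adjusted p = 0.00782). Sqor, which encodes a mitochondrial sulfide oxidase and lies next beyond Slc30a4 among the named genes, fell by 3.03 ± 0.52 on the log2 scale (edgeR adjusted p = 0.0211). Trmt6, a transfer RNA methyltransferase subunit, and Ttbk2, a tubulin kinase, fell by 1.02 ± 0.17 and 2.06 ± 0.35. So within 1 Mb of Slc30a4, which overlapped between genotypes in these cells, genes lay that were called higher and called lower.

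In phagocyte-like cells the 2 called neighbours were Thbs1, which encodes the matrix protein thrombospondin 1, and Spint1, a protease inhibitor gene. Thbs1 stood at 76.5 and 51.8 against 625 and 689 scaled CPM (3.37 ± 0.26, edgeR adjusted p = 0.00237). Spint1 had 0 CPM in both WT tumours and 28.6 and 10.4 in knockout tumours, so its fold has no fixed size. In plasmacytoid dendritic-like cells Bcl2l11 (the cell death gene Bim), Knl1, Gpcpd1 and Zfp106 were called, all higher in the knockout samples. No neighbour was called in both T/NK-like and phagocyte-like cells. A call in 1 class and not in another was not tested as a difference between classes.

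Genes that work with the 7 were read from lists of partners, beside the 5.41% of all genes tested that were called in T/NK-like cells. None of the 12 other eIF3 subunits was called in any class by edgeR (3, 1, 4 and 2 had an unadjusted p under 0.05), with median log2 fold changes of -0.30, -0.28, -0.42 and -0.34 in T/NK-like, phagocyte-like, plasmacytoid dendritic-like and fibroblast-like cells. Of the 11 cystatins and cathepsins tested in T/NK-like cells only Ctsz, a carboxypeptidase of lysosomes also on chromosome 2, was called, and it was lower by 1.03 ± 0.21 (log2 fold change -1.03, edgeR adjusted p = 0.0356). Of 19 zinc transporters and zinc-binding genes, the metallothioneins Mt1 and Mt2 rose by 2.51 ± 0.32 and 2.68 ± 0.34 in T/NK-like cells. Of 13 Notch pathway genes, the receptor Notch1 and the glycosyltransferase Lfng rose there by 0.64 ± 0.15 and 0.92 ± 0.17. The called genes were 9.09%, 10.5% and 15.4% of these 3 lists, each 1 or 2 genes, and nothing particular to a list is read from them. Neither the 5 CDK5 and transfer RNA methylthiolation genes nor the 11 complex IV genes related to NMES1 had a call in T/NK-like cells (1 and 2 with an unadjusted p under 0.05), and no list had a call in the other 3 classes.

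Over the 16 sums of sample and class, the genes whose level ran most like each of the 7 were found by Pearson r of log2(CPM + 1) among 10305 genes, as a description of points that share libraries and depth. Pcna-ps2 was most like Eif3j1 (r = 0.92) and also most like Cdk5rap1 (0.92), and Eif3j1 ranked 3 for Cdk5rap1 (0.86). Eif3j1 and Eif3j2 ran against each other (r = -0.83). Slc30a4 ran with Ctsl (0.96), Cst3 with Ctsz (0.95), Dll4 with Il12a (0.96), AA467197 with Pgk1 (0.89) and Eif3j2 with Csn3 (0.89). Next in line were Brd2 and Hexim1 for Eif3j1, Rbm4b for Cdk5rap1, Vangl2 for Slc30a4, Lacc1 for Cst3, Alkal1 for Dll4 and Ifrd1 for AA467197.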

How the data were processed

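The deposited values are raw UMI counts per gene and barcode, with no normalization and with empty droplets included; per the file headers and the submitters' processing notes, the authors made the counts with Cell Ranger 3.1.0 against mm10, and the feature names carry a combined human and mouse reference of 64591 features, of which the 31053 mouse ones were used. How reads that fit both copies of a gene were assigned is not given in the sources used here. Per the labels' protocols, tumours were digested, filtered and enriched for live cells before library preparation with the 10x 3′ v3.1 kit. Gene positions are from GENCODE vM21 (GRCm38), which matched 30934 of the mouse gene identifiers and left 119 unmatched.

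Barcodes entered when they had 500 UMIs or more over 250 genes or more, of which mitochondrial UMIs were no more than 20%, no further test against empty droplets was run, and the highest Scrublet scores (0.8% per 1000 cells, scanpy 1.11.5) were removed as doublets. A cell was gated to the class with the largest excess of marker UMIs over 20% of the free-RNA expectation, with at least 2 excess UMIs, at least 2 marker genes and at least 60% of the excess; 188 T/NK-like, 81 phagocyte-like, 50 plasmacytoid dendritic-like, 5 fibroblast-like and 9 tumour-like cells lay within 10 points of that last limit. Leiden clusters named by their most common gated class were the alternative. UMIs were summed per sample and class and tested with edgeR 4.0.16 (R 4.3.3; filterByExpr, TMM, quasi-likelihood test, Benjamini-Hochberg threshold 0.05; host genotype the only term). The p-values weigh each difference against a spread between samples that edgeR estimates with information shared over genes. With 2 tumours per group that spread rests on few samples, and the knockout libraries were also the shallower ones. Classes were compared with the sample as a block. Alternatives were RLE scaling, DESeq2 1.42.0, no filter, the replicate number as a block, other limits on cells, a stricter gate, clusters, no doublet removal, other windows around Il1a and each sample left out; the tests were checked on simulated counts.

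The 7 genes, the partner lists and the tests were chosen with earlier results of these data known. Of other genes, the text names the 5 with the smallest p within 15 Mb of Il1a in T/NK-like and in phagocyte-like cells, called partners, Pcna and Pcna-ps2, and the 3 genes most like each member by Pearson r at a mean of at least 5 CPM, of which some are left out for length. The plasmacytoid dendritic-like neighbours, the per-cluster values and the per-cell values of Eif3j2 and Cst3 were added after the values were seen. Binomial and Poisson intervals are exact at 95%, and they and a floor of 3 counts cover counting error only.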

Additional observations from a re-analysis of the deposited data

Results flagged for a closer look

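Slc30a4 differed in direction between cell classes under the same host contrast. In phagocyte-like cells the log2 fold change of Il1a-/- over WT was 1.69 and in fibroblast-like cells -0.37, a distance of 2.06, with no overlap between genotypes in either class. With classes taken from clusters the phagocyte-like groups of Slc30a4 overlapped, at 13.4 and 18.1 CPM in WT tumours and 17.3 and 64.8 CPM in knockout tumours. Between plasmacytoid dendritic-like cells, at 1.43, and fibroblast-like cells the distance was 1.79. The difference between these classes was not tested.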

How the results depend on the processing

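Of the alternative values of the members' log2 fold changes, 281 moved by less than the spread between replicates, 17 by more and 1 turned its direction: Cst3 in T/NK-like cells ran from -0.77 to 0.063 without 1 sample, the last without Il1a-/- replicate 1. The Eif3j1 share kept its direction and size in every setting run, with differences without 1 sample of 63.1 to 68.9 points in T/NK-like, 66.8 to 71.5 in phagocyte-like, 50.5 to 55.6 in plasmacytoid dendritic-like and 52.7 to 57.1 in fibroblast-like cells. Counts of called genes depended on the setting. T/NK-like cells had 598 calls, 1740 with no low-count filter, 1640 with the replicate block and 37 to 1027 without 1 sample; near Il1a these were 11, 33, 30 and 1 to 22, with 4 within 5 Mb and 22 within 30 Mb. Phagocyte-like cells had 54, against 7 with at least 1000 UMIs per cell, 8 with at most 10% mitochondrial UMIs, 106 with DESeq2, 18 with clusters, 34 with no doublet removal, 550 with no filter, 32 with the stricter gate and 3 to 123 without 1 sample. Near Il1a they had 2, and 1 with 1000 UMIs, 10% mitochondrial UMIs, DESeq2, clusters or the stricter gate, 7 with no filter, 0 within 5 Mb and 1 to 3 without 1 sample. Plasmacytoid dendritic-like cells had 97, against 61 with DESeq2, 230 with no filter, 327 with the replicate block and 119 to 201 without 1 sample, and 2 rather than 4 within 5 Mb. Fibroblast-like cells had 0, against 16 with DESeq2 and 216 with no filter, 6 of them near Il1a. Without 1 sample, 3 to 5 members were called in phagocyte-like against T/NK-like cells. Against T/NK-like cells, Dll4 turned to 0.99 in phagocyte-like and 4.91 in fibroblast-like cells with clusters, whose fibroblast-like class takes in the endothelial-like cells; in plasmacytoid dendritic-like cells Eif3j2 ran from -0.48 to 0.024 and Cdk5rap1 from -0.73 to 0.098 without 1 sample. The Eif3j1 class calls were also lost with no filter (edgeR adjusted p = 0.108 and 0.0539 in phagocyte-like and fibroblast-like cells), with clusters (0.109, phagocyte-like) and with RLE scaling (0.0874, fibroblast-like). The labels speak of 2 pairs of tumours but do not tie the replicate numbers to them; deviations of same-numbered samples correlated at 0.17, 0.04, 0.08 and 0.40 in the 4 classes, and the members' log2 fold changes kept their direction under the replicate block. The causes of these changes were not tested. Few UMIs limit the values of tumour cells of knockout hosts, of Cdk5rap1 outside T/NK-like cells and of Dll4.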
